A study of Mus musculus with 28 samples.

Results

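The Hox genes of the 4 mammalian clusters were followed through the reprogramming of mouse fibroblasts into induced pluripotent stem (iPS) cells. Every gene on the arrays whose symbol was Hoxa, Hoxb, Hoxc or Hoxd followed by a number was taken, each through its probe set of highest mean signal among the probe sets annotated with 1 gene. This gave 33 Hox genes of 11807 genes in the table of 24 arrays, with 9 from the HoxA cluster, 10 from HoxB, 5 from HoxC and 9 from HoxD. A separate table of 4 arrays of another design held 31 Hox genes of 12394 genes. It lacked Hoxb8, Hoxd3 and Hoxd4 and added Hoxc6. By paralog number, the place of a gene along its cluster, the 33 genes were 7 of numbers 1 to 3, 13 of numbers 4 to 8 and 13 of numbers 9 to 13.

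The starting cells were mouse embryonic fibroblasts (MEFs) of strain C57BL6/129, grown from embryos of day 13.5. All cells carried the OKSM cassette (Oct4, Klf4, Sox2 and c-Myc) and the Rosa26-M2rtTA activator. The labels allow 1 or 2 copies of each without saying which sample had which. Sample titles read KH2-MEF for the MEFs and KH2-SC_MEF for the iPS cells, and the titles do not say what the difference stands for. The factors were switched on with doxycycline in embryonic stem cell medium with serum and LIF, and MEFs are labelled as day 0. Cells were sorted on days 3, 6, 9 and 12 by Thy1, which marks the surface of these fibroblasts, and by SSEA1, a sugar epitope found on mouse pluripotent cells. The sorts of each day gave Thy1+ cells, cells negative for both markers (here Thy1- cells) and SSEA1+ cells without Thy1. The SSEA1+ cells of day 12 were GFP-negative, and a GFP+ fraction of day 12 was sorted beside them. The labels do not name the gene that drives GFP. iPS cells were preplated to remove feeder cells. There were 2 arrays, named M2 and M3, of MEFs and of every fraction of day 3 or day 6. Every fraction of day 9 or day 12 had 1 array (M2), and iPS cells had 3, named 1-3, 1-5 and 1-6. The 4 arrays of the other design held SSEA1+ cells of day 6 without and with the epithelial surface protein EpCAM, 2 arrays each, with no strain given. Whether replicate arrays stand for separate embryos or cultures is not given in the labels. The p-values therefore reflect array-to-array spread, and this spread may be technical.

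Hox genes encode homeodomain transcription factors that tell cells of the embryo where they lie along the head-to-tail axis and along the limb. Genes at one end of a cluster (low paralog numbers) act in anterior regions and are activated early, and genes at the other end (high numbers) act in posterior and distal regions. Fibroblasts keep in culture the Hox pattern of the place they came from, whereas in pluripotent stem cells the clusters are held silent by Polycomb proteins. Neighbouring Hox transcripts can share exons, so a probe set may read a transcript that runs into the next gene, and the annotation names 1 gene for each probe set used.

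Values are log2 signals, so a difference of 1 is 2-fold. A gene was called higher or lower when its limma p, adjusted by Benjamini-Hochberg across the whole table, was under 0.05 and the difference was at least 2-fold. No gene was left out for low signal, and 13 of the 33 Hox genes had a mean signal under the 25th percentile of all genes (5.09). Arrays of a group agreed closely except in 2 groups. The median range between arrays over all genes was 0.0906 to 0.139 in the other pairs, 0.337 in day 6 Thy1+ cells and 0.323 in iPS cells. In day 6 Thy1+ cells Hoxd9 read 11.29 on M2 and 9.62 on M3. Of the 21 Hox genes called lower in iPS cells than in MEFs, 14 had their highest iPS signal on the 1-3 array, which also had the highest iPS signal of Col1a1, a fibrillar collagen (10.09, against 9.37 and 8.71). The counts below were repeated without the day 6 Thy1+ M2 array and, where iPS cells enter, without each iPS array. The check of cell identity followed the labels, with the mean of 10 measured fibroblast markers (of 12 listed) at 11.55 and 11.59 in MEFs and 6.28 to 7.10 in iPS cells. The mean of 9 measured pluripotency markers (of 10) was 4.42 and 4.43 in MEFs and 11.37 to 11.61 in iPS cells.

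**Figure D1:**
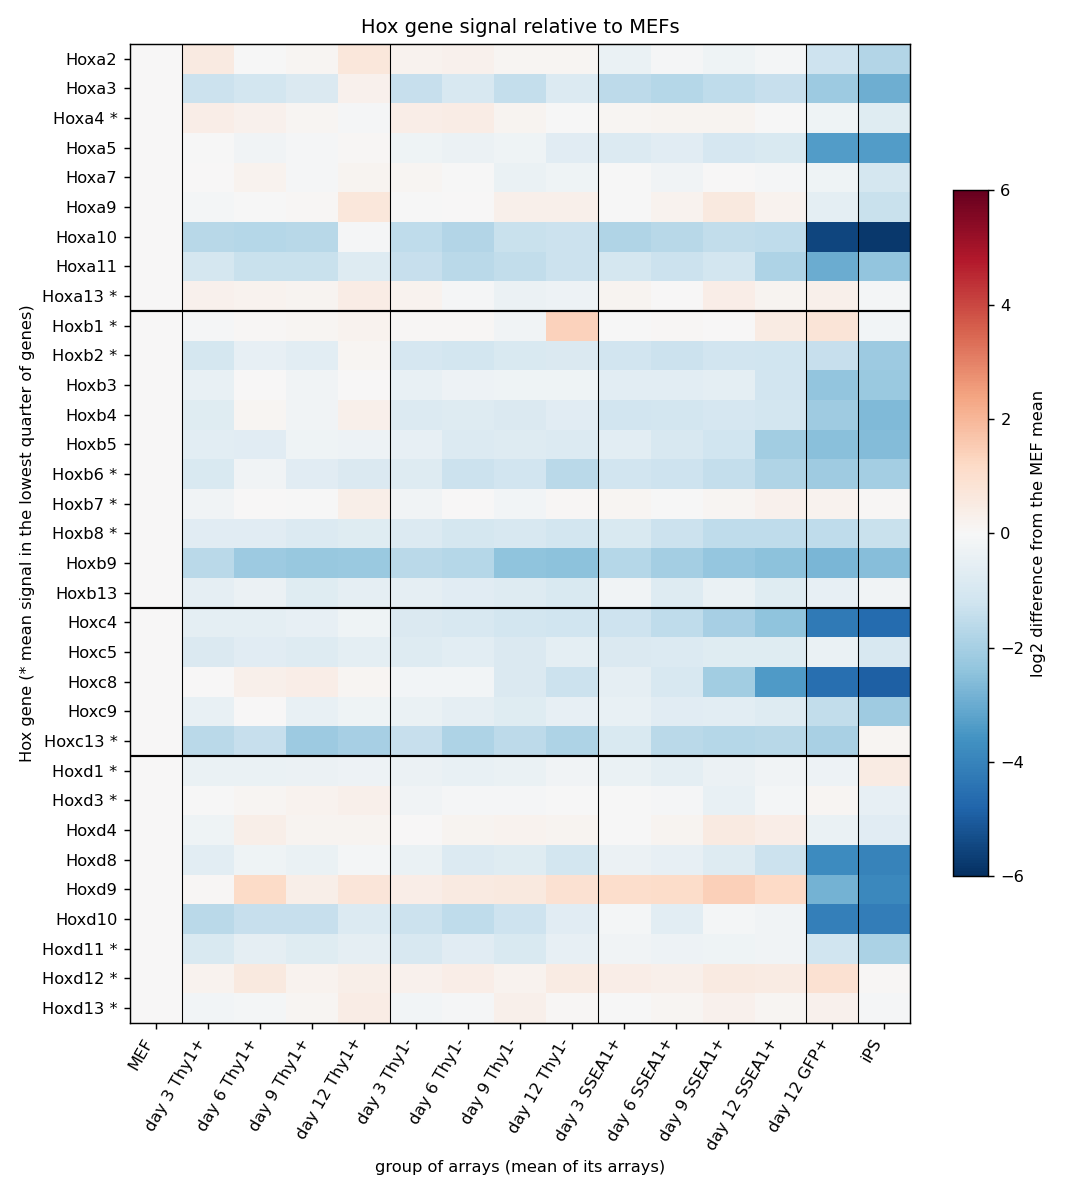
Heat map of the log2 difference of each of the 33 Hox genes (rows, by cluster and paralog number) from its MEF mean in 15 groups of arrays (columns). Blue is lower and red higher than in MEFs. The darkest blue lies in the GFP+ and iPS columns, at Hoxa10, Hoxc4, Hoxc8, Hoxd8 and Hoxd10. Hoxd9 is red in the SSEA1+ columns and, less evenly, in the Thy1+ and Thy1- columns after day 3.

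The end points, iPS cells and MEFs, were compared first. The Hox genes of the fibroblasts were lower in iPS cells in all 4 clusters. Of the 33 genes, 21 were called lower and 0 higher, where 15.3% of all genes were called lower and 15.4% higher. The median difference was -1.89 over the Hox genes and 0.01 over all genes. By cluster, 7 of 9 HoxA, 7 of 10 HoxB, 3 of 5 HoxC and 4 of 9 HoxD genes were lower. By position, 4 of 7 genes of paralog numbers 1 to 3, 9 of 13 of numbers 4 to 8 and 8 of 13 of numbers 9 to 13 were lower. Without the iPS 1-3 array 22 genes were called, and without the day 6 Thy1+ M2 array 21. Of the 12 genes not called, 9 were among the dim genes. In bulk samples fewer cells that express a gene and less RNA per cell cannot be told apart.

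Among the anterior genes, Hoxa3, which patterns the pharyngeal arches that form the thymus and parathyroid, stood at 8.64 and 8.71 in MEFs and at 5.70, 5.61 and 5.94 in iPS cells. The groups lay far apart, and Hoxa3 fell by 2.92 (SE 0.14, adjusted p = 3.89e-10, limma). A second Hoxa3 probe set went the same way, from a mean of 8.29 to 4.58. Hoxa2, the selector gene of the second pharyngeal arch, fell by 1.76, Hoxb2 by 2.19 and Hoxb3 by 2.25. The other 3 genes of paralog numbers 1 to 3 were Hoxb1, Hoxd1 and Hoxd3, all dim, with differences of -0.18, 0.47 and -0.49.

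Central genes had some of the widest gaps. Hoxc8, which specifies vertebrae of the trunk and motor neurons of the forelimb level, stood at 9.43 and 9.46 in MEFs. It stood at 3.79, 4.54 and 5.27 in iPS cells, and fell by 4.91 (SE 0.28, adjusted p = 1.93e-09, limma). Hoxc4 stood at 9.48 and 9.71 in MEFs and at 4.56, 5.10 and 5.31 in iPS cells, and fell by 4.60 (SE 0.18, adjusted p = 5.45e-11). For both HoxC genes the gap between the end points was wider than the spread between the iPS arrays. Hoxd8 fell by 4.02 (SE 0.15), from 8.23 and 8.19 to 4.16, 4.27 and 4.13. Hoxa5, needed for the lung and for the cervical and upper thoracic skeleton, fell by 3.36, from 7.27 and 7.19 to 3.65, 3.90 and 4.07. Hoxb4, known for expanding blood stem cells, fell by 2.66 and Hoxb5 by 2.61, and Hoxa7, Hoxb6 and Hoxb8 fell by 1.05 to 2.07. The Hoxa7 call rested on single arrays, as it was lost without the iPS 1-5 array (-0.62) and without MEF M2 (-0.97), and also with quantile normalization (-0.89) or array medians subtracted (-0.92). For Hoxb4 a second, dimmer probe set read 4.97 in MEFs and 4.47 in iPS cells. Of the central genes not called, Hoxa4, Hoxc5 and Hoxd4 had differences of -0.73, -0.97 and -0.67 without overlap of the arrays, and Hoxb7 one of 0.06.

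Among the posterior genes, 8 of numbers 9 to 11 were called lower and none of numbers 12 and 13 was. Hoxa10, which patterns the lumbar region, the limb and the uterus, gave the largest difference of all 33 genes. It stood at 10.11 and 10.21 in MEFs and at 4.15, 4.31 and 4.67 in iPS cells, and fell by 5.78 (SE 0.20, adjusted p = 1.92e-11, limma), or 55.0-fold. Hoxd10 stood at 8.38 and 8.39 in MEFs and at 4.23, 4.09 and 4.37 in iPS cells, and fell by 4.15 (SE 0.13). Hoxd9, a limb and trunk gene like Hoxd10, stood at 9.23 and 9.35 and then at 5.33, 5.04 and 5.87, and fell by 3.88 (SE 0.34). No iPS array reached a MEF array in any of these. Hoxb9 fell by 2.57, Hoxa11, a gene of the forearm and lower leg, by 2.35, Hoxc9 by 2.12, Hoxd11 by 1.89 and Hoxa9 by 1.34. The terminal genes Hoxa13, Hoxb13, Hoxc13, Hoxd12 and Hoxd13 act at the tips of limbs, tail and urogenital tract. They differed by -0.22 to 0.11 and were not called, and all but Hoxb13 were among the dim genes.

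**Figure D2:**
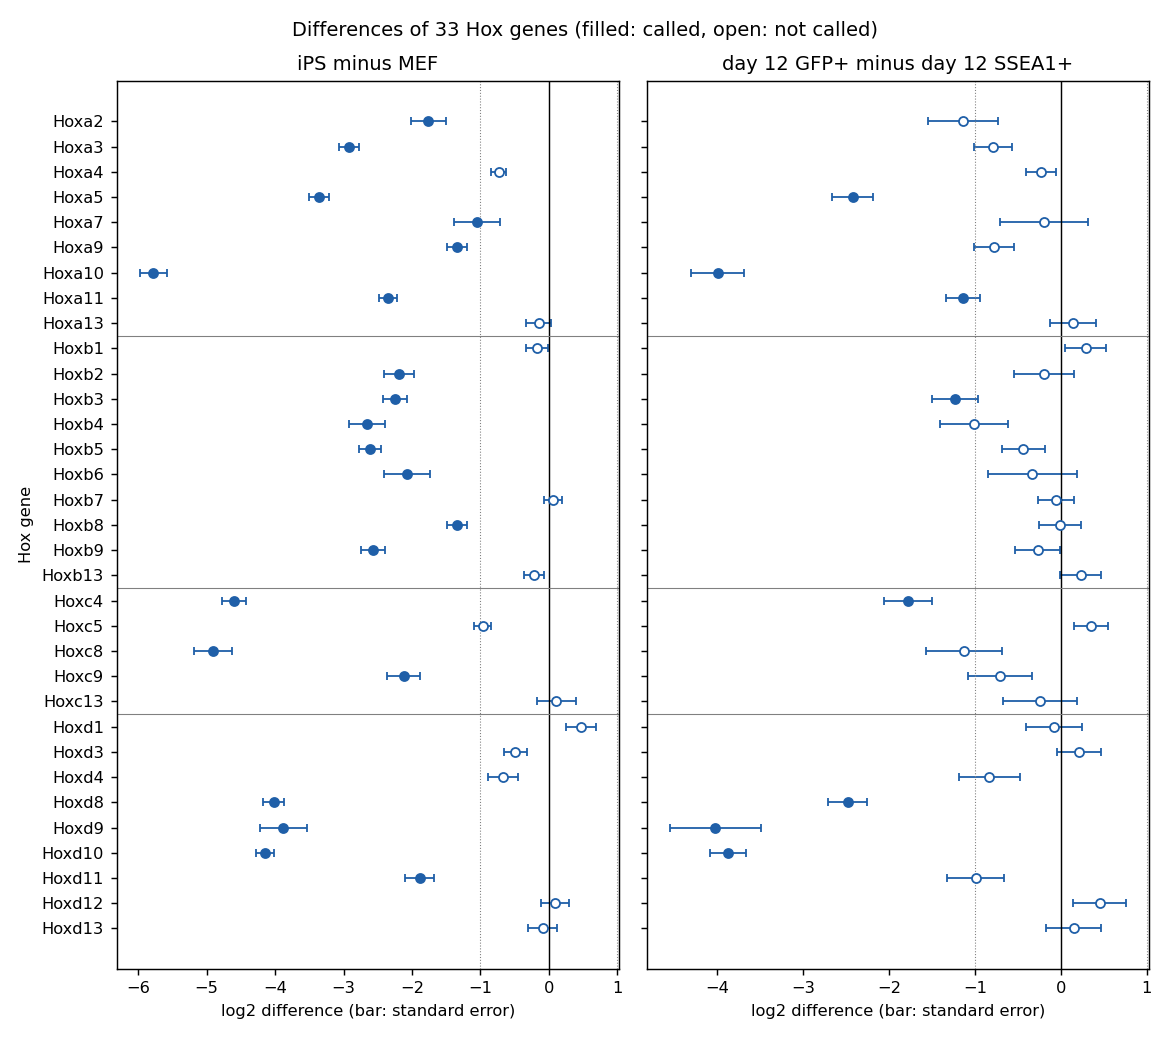
Log2 difference of each Hox gene between iPS cells and MEFs (left) and between GFP+ and SSEA1+ cells of day 12 (right), with the standard error of the fit as a bar. Filled points were called and open points were not, and dotted lines mark 2-fold. On the left 21 points are filled, all below 0. On the right 8 are filled, led by Hoxd9 at -4.02, Hoxa10 at -3.99 and Hoxd10 at -3.87.

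Promoter sequence was at hand for 21 of the 33 genes (23 start sites, RefSeq, build GRCm38.p6, 250 bases before to 50 after the start). The sequences of Hoxd8, Hoxd9 and Hoxd10 are shown because these 3 neighbours on chromosome 2 were all called lower in GFP+ than in SSEA1+ cells of day 12. That of Hoxc4 is shown because its gene had also declined from day to day in SSEA1+ cells. The 2 courses were not distinct, since Hoxc4 was called lower in GFP+ cells too. Hoxd8 had also declined in SSEA1+ cells, from a mean of 7.84 on day 3 to 6.94 on day 12. CpG dinucleotides, the targets of DNA methylation, are in capitals.
Hoxd10, chr2:74691641-74691940, + strand: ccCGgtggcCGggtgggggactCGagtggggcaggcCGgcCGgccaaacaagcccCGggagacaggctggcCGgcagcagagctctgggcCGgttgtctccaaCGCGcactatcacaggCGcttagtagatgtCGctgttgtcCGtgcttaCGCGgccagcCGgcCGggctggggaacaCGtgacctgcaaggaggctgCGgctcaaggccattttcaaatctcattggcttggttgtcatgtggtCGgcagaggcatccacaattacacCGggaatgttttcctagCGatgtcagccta
Hoxd9, chr2:74697513-74697812, + strand: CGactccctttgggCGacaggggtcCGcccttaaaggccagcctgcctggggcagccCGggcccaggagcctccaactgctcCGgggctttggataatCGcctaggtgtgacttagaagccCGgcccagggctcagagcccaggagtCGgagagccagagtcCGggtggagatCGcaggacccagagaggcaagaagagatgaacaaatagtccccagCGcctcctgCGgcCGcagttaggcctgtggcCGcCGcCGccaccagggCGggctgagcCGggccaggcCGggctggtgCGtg
Hoxd8, chr2:74704365-74704664, + strand: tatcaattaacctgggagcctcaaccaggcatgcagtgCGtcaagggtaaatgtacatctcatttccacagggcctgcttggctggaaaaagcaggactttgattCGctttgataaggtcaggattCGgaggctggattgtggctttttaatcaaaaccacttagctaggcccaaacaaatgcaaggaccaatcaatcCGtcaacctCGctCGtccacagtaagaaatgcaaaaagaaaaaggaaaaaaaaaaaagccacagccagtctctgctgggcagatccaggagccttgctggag
Hoxc4, chr15:103034145-103034444, + strand: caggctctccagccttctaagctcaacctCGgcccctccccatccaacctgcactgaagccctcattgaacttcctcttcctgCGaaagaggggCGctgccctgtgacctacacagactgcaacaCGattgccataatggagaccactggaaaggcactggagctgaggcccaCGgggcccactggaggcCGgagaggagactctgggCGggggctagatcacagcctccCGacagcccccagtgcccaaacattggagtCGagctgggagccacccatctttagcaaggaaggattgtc
The 300 bases held 22 CpGs at Hoxd10, 20 at Hoxd9, 6 at Hoxd8 and 9 at Hoxc4. The 3 HoxD genes called lower in GFP+ cells thus did not share 1 CpG density. Over the 23 Hox promoters the median was 14 CpGs (4 at Hoxa9, Hoxd4 and 1 start of Hoxd11, 45 at Hoxa13). Over 11986 promoters of 9430 measured genes it was 17. Their median GC content was 57.3%, against 59.0%. On either strand, TATAAA (the TATA box) lay in 4 Hox promoters (17.4%, against 10.2% of all), those of Hoxa10, Hoxb8, Hoxd4 and Hoxd13. TGATTNAT, a joint site of Pbx and Hox proteins, lay in 2 (8.70%, against 1.97%), those of Hoxa2 and Hoxd11, and TTTATNG, bound by Cdx factors, in 2 (8.70%, against 8.02%), those of Hoxb8 and Hoxd4. TATAAA read on the other strand is TTTATA, which shares letters with TTTATNG. In Hoxb8 the bases TTTATAG match both, and TTTATTG elsewhere in it matches TTTATNG alone. In Hoxd4 the matches to the TATA box and to TTTATNG lie apart. A match describes the sequence only.

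Between MEFs and day 3, some Hox genes were already lower in all 3 fractions. In Thy1+ cells 7 of 33 were called lower and 0 higher (5.43% and 5.27% of all genes). In Thy1- cells the same count of 7 was lower and 0 higher (6.55% and 5.72% of all genes). In SSEA1+ cells 8 were lower and 1 higher (8.8% and 7.33% of all genes). The 3 comparisons share the MEF arrays, so they are given side by side. Hoxa10, Hoxa11, Hoxa3, Hoxb2 and Hoxb9 were lower in all 3, by 1.07 to 1.81 in Thy1+ and SSEA1+ cells and by 1.02 to 1.63 in Thy1- cells. The median difference of the 33 genes was -0.44 in Thy1+, -0.42 in Thy1- and -0.42 in SSEA1+ cells, where that of all genes lay between 0.01 and 0.05. Of the 10 fibroblast markers 6, 7 and 8 were lower in Thy1+, Thy1- and SSEA1+ cells, with medians of -1.64, -2.28 and -3.10, and their part in the Hox differences was not tested.

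Hoxb9, a trunk gene that acts in the thoracic skeleton and in motor neurons, stood at 8.55 and 8.49 in MEFs. On day 3 it stood at 6.95 and 6.82 in Thy1+, at 6.85 and 6.92 in Thy1- and at 6.79 and 6.80 in SSEA1+ cells. No fraction differed from another by as much as the gap to MEFs, and Hoxb9 fell by 1.63 (SE 0.18, adjusted p = 1.28e-05, limma), 1.63 and 1.72. Hoxa10 stood at 8.66 and 8.30, at 8.69 and 8.58 and at 8.44 and 8.26 in the same order, and fell by 1.68, 1.53 and 1.81. Hoxa3 likewise fell by 1.30, 1.36 and 1.59. In SSEA1+ cells Hoxc4 fell by 1.26 (SE 0.20, adjusted p = 0.000156), Hoxb6 by 1.16 and Hoxb4 by 1.13.

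Hoxd10 and Hoxd9 were not called lower in day 3 SSEA1+ cells. Hoxd10 stood at 6.70 and 6.77 in day 3 Thy1+ cells and at 7.08 and 7.08 in Thy1- cells, and fell by 1.65 (SE 0.15, adjusted p = 1.36e-06) and 1.30 from MEFs. In day 3 SSEA1+ cells it stood at 8.25 and 8.24, within 0.15 of both MEF arrays. Hoxd9 stood at 10.22 and 10.44 in SSEA1+ cells, higher than in MEFs by 1.03 (SE 0.38, adjusted p = 0.047, limma). That call was lost without any 1 of the 4 arrays compared, with values between 0.92 and 1.14. Hoxd9 was not lower in the other fractions either, with differences from MEFs of 0.09 in Thy1+ and 0.42 in Thy1- cells (not called). Its later means in Thy1+ and Thy1- cells ran from 9.65 to 10.45, above the MEF mean of 9.29. Hoxc13 fell by 1.64 in Thy1+ and 1.40 in Thy1- cells. Several day 3 calls were lost when 1 array was left out, some only because the difference then lay just under 2-fold. Without MEF M2, Hoxa11 was not called in Thy1+ or SSEA1+ cells (-0.96 in both), nor was Hoxb4 (-1.01) or Hoxb6 (-1.33) in SSEA1+ cells. Without MEF M3, Hoxb2 was not called in any fraction (-0.81, -0.76 and -0.88 in Thy1+, Thy1- and SSEA1+ cells), nor was Hoxb6 in SSEA1+ (-0.98) or Hoxc13 in Thy1- cells (-1.07). The M3 array of SSEA1+ cells was needed for Hoxa11 (-0.98 without it), Hoxb4 (-1.03) and Hoxb6 (-0.93). Hoxb2 was also lost without the M2 array of Thy1+ cells (-0.96) or the M3 array of Thy1- cells (-0.94).

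Thy1+ cells, which keep the fibroblast marker and mostly do not reprogram, were also set against MEFs late in the course. On days 9 and 12, 4 of 33 genes were lower than in MEFs and 0 higher (4.56% and 4.61% of all genes). At an unadjusted p under 0.05 (limma), 9 were lower and 1 higher, with the share of all genes at this threshold not counted. The median was -0.26 over the Hox genes and 0.04 over all genes. Hoxb9 stood at 6.24 on day 9 and 6.27 on day 12, and fell by 2.26 (SE 0.18, adjusted p = 6.42e-07, limma). Hoxc13 fell by 2.10, Hoxd10 by 1.11 and Hoxa11 by 1.06, the last not called without MEF M2 (-0.95). In SSEA1+ cells of the same days Hoxb9 read 6.18 and 6.06. On the day 12 Thy1+ array Hoxa10 stood at 10.09, beside 10.11 and 10.21 in MEFs, although it had stood at 8.5 on day 9. Hoxa3 stood at 8.93 on that array, against 7.81 on day 9, and Hoxb2 at 5.94, against 5.23. These late levels rest on 1 array. The mean of the 10 fibroblast markers was 10.56 on day 9 and 10.69 on day 12 in Thy1+ cells, and its part in the result was not tested.

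**Figure D3:**
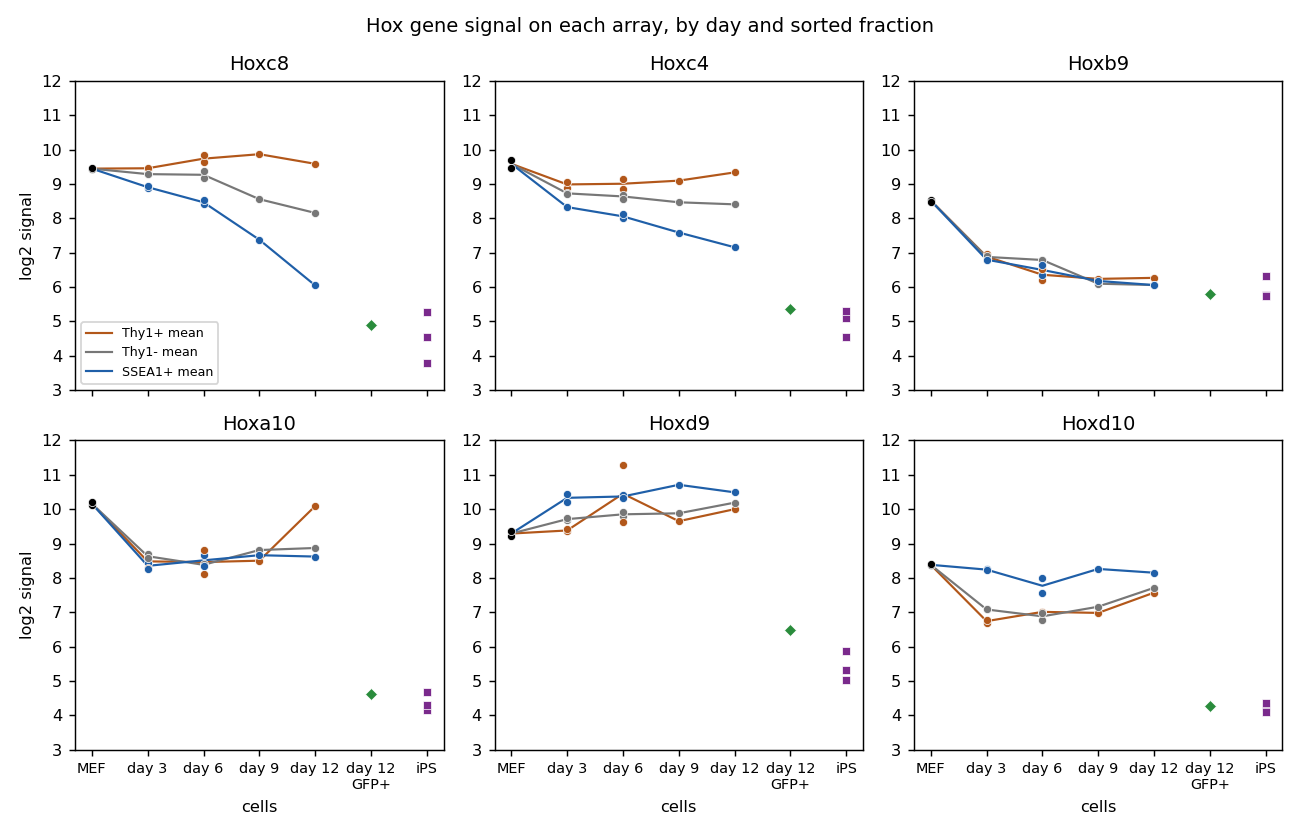
Log2 signal of 6 Hox genes on each array (points) in MEFs, in sorted fractions of days 3 to 12, in day 12 GFP+ cells and in iPS cells, with lines through the means of Thy1+, Thy1- and SSEA1+ cells. Hoxc8 and Hoxc4 decline from day to day in SSEA1+ cells, Hoxb9 drops in all fractions by day 3, and Hoxa10 (after a drop by day 3), Hoxd9 and Hoxd10 keep their level in SSEA1+ cells to day 12 and are low in GFP+ cells.

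SSEA1+ cells are the fraction from which iPS cells arise. From day 3 to day 6, 0 Hox genes were called higher or lower by limma in these cells (1.45% of all genes higher and 0.356% lower). At an unadjusted p under 0.05, 0 were higher and 4 lower, with the share of all genes at this threshold not counted. From day 6 to days 9 and 12, 1 Hox gene was lower, Hoxc8, and 0 higher (1.29% and 1.1% of all genes). Hoxc8 stood at 8.88 and 8.95 on day 3, at 8.41 and 8.54 on day 6, at 7.38 on day 9 and at 6.05 on day 12. Each day lay below the day before, and from day 6 to days 9 and 12 it fell by 1.76 (SE 0.31, adjusted p = 0.00333). Hoxc4 stood at 8.33 and 8.32, at 8.0 and 8.12, at 7.59 and at 7.16 on the same days. The mean of the 10 fibroblast markers in the same SSEA1+ arrays was 8.31 and 8.33, 8.81 and 8.84, 8.24 and 7.66, and its part in the HoxC course was not tested.

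Within each day the SSEA1+ cells were then set against the Thy1+ cells of the same culture day. Over all days, 2 Hox genes were lower and 1 higher in SSEA1+ cells (5.07% and 3.5% of all genes), in a fit with terms for day and fraction. Hoxc8 was lower by 1.61 on average (SE 0.28, adjusted p = 0.000314, limma), with differences of -0.54, -1.26, -2.49 and -3.54 on days 3, 6, 9 and 12. In Thy1+ cells it read 9.44 and 9.48, 9.63 and 9.85, 9.87 and 9.59, close to the MEF arrays or above them. Hoxc4 was lower by 1.15 (SE 0.15, adjusted p = 3.53e-05), with -0.66, -0.95, -1.51 and -2.18. Hoxd10 was higher by 1.07 (SE 0.12, adjusted p = 1.43e-05), with 1.51, 0.76, 1.28 and 0.59. For these 3 genes the arrays of the fractions did not overlap on days 3 and 6, and days 9 and 12 have 1 array per fraction.

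M3 arrays covered only days 3 and 6. In them alone, Hoxd10 was called (1.01), while Hoxc8 and Hoxc4 lay just under 2-fold (-0.92 and -0.89, not called). Without the day 12 SSEA1+ array Hoxc4 was lower by just under 2-fold (-0.99). The 10 fibroblast markers moved with the fraction, with 9 lower in SSEA1+ cells and a median of -1.85. The neural, muscle, macrophage, endothelial and keratinocyte lists had medians between -0.02 and 0.08 and 1 member called. Their part in the Hox differences was not tested.

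The gap between the fractions widened for 4 genes. The SSEA1+ minus Thy1+ difference changed from day 3 to days 9 and 12 by -2.47 for Hoxc8 (SE 0.44, adjusted p = 0.00176, limma interaction term). The change was -1.37 for Hoxb5, -1.18 for Hoxc4 and -1.05 for Hoxd8. By limma 0 Hox genes changed the other way (4.59% of all genes called downward and 3.87% upward), nor did any at an unadjusted p under 0.05. In the same term 6 of 10 fibroblast markers changed downward (median -1.53) and 5 of 9 pluripotency markers upward (median 1.38), and their part in the Hox change was not tested. Hoxb5 stood at 6.09 and 5.83 in day 3 SSEA1+ cells, at 5.37 on day 9 and at 4.5 on day 12, while Thy1+ cells read 5.78 and 6.12, then 6.31 and 6.28. Hoxd8 stood at 7.79 and 7.89, then 7.42 and 6.94, against 7.64 and 7.49, then 7.83 and 8.07 in Thy1+ cells. Both genes thus began close together and parted late. On days 9 and 12 the Thy1- array lay between the other fractions for all 4 genes. Over all days 0 Hox genes were called between Thy1- and Thy1+ cells by limma (0.754% of all genes lower and 1.15% higher). At an unadjusted p under 0.05, 10 were lower and 0 higher, with the share of all genes at this threshold not counted. In Thy1- cells Hoxc8 read 9.28 and 9.30, 9.17 and 9.38, 8.56 and 8.16 on days 3 to 12.

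To place each fraction between the end points, the share of the MEF to iPS fall already covered was taken for the 21 Hox genes called lower. It is a description, since the genes were chosen by their fall. In SSEA1+ cells the median share was 25.1% on day 3, 28.6% on day 6, 30.8% on day 9 and 41.8% on day 12. Over all 1807 genes called lower in iPS cells it was 45.3%, 44.4%, 58.7% and 66.3%. The Hox median was thus the lower of the pair on each day. In GFP+ cells it was 92.2%, against 89.2% over all such genes. Thy1+ cells had 23.7%, 10.8%, 10.6% and 1.29% on days 3, 6, 9 and 12, against 27.8%, 14.0%, 11.4% and 10.3%. The day 9 and day 12 values rest on 1 array each. On day 12, 6 of the 21 genes in SSEA1+ cells and 20 in GFP+ cells lay within 1 of the iPS mean. The same count over the 1807 genes was not made. Genes with a small fall, such as Hoxa7 (1.05), come within 1 easily. The single genes ran from -30.7% to 114.0% in day 12 SSEA1+ cells. Hoxd9 (-30.7%), Hoxa9 (-16.1%), Hoxd10 (5.59%), Hoxa2 (7.09%) and Hoxa7 (7.18%) had covered the least. Hoxb8 (114.0%), Hoxb9 (95.7%), Hoxb6 (87.1%), Hoxb5 (79.3%), Hoxa11 (78.2%) and Hoxc8 (69.2%) had covered the most. Hoxb6 and Hoxb8 are dim genes, and the other HoxB genes lay mid-range, at 53.9% (Hoxb2), 49.9% (Hoxb3) and 41.8% (Hoxb4).

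**Figure D4:**
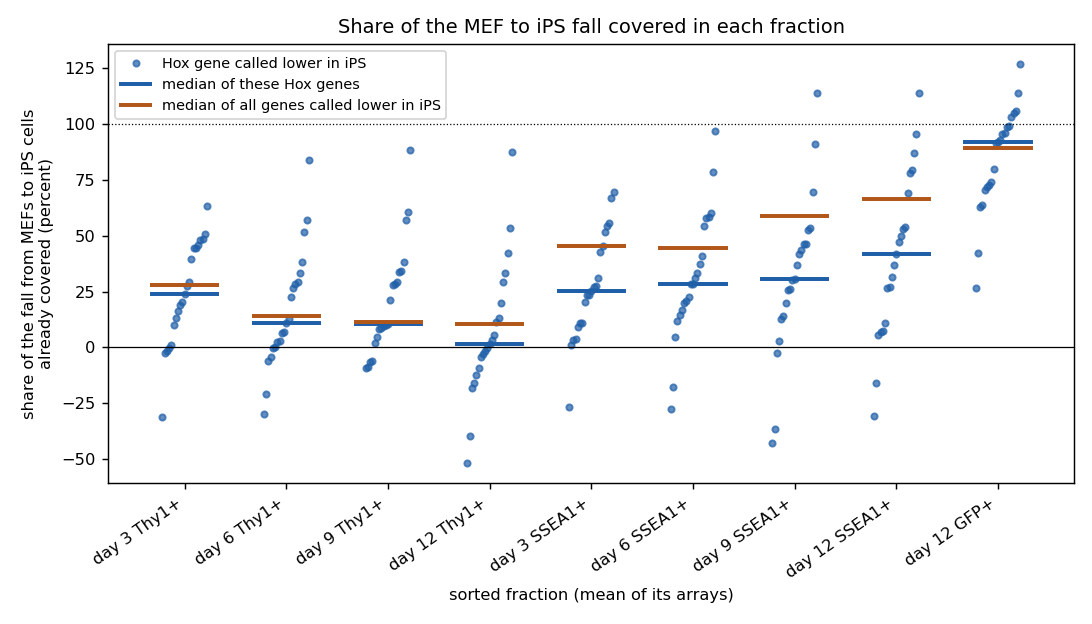
Share of the fall from the MEF mean to the iPS mean that each of the 21 Hox genes called lower in iPS cells had covered (points, percent) in Thy1+, SSEA1+ and GFP+ cells. Blue bars are medians of these Hox genes and orange bars medians of all 1807 genes called lower. In day 12 SSEA1+ cells the medians are 41.8% and 66.3%, and in GFP+ cells 92.2% and 89.2%.

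A large step lay between SSEA1+ and GFP+ cells of day 12. Each was 1 array from M2, so the test took its spread from the groups that had replicates. Of the 33 Hox genes 8 were lower in GFP+ cells and 0 higher (4.73% and 2.46% of all genes). Hoxd9 went from 10.49 to 6.47, and fell by 4.02 (SE 0.53, adjusted p = 0.000204, limma). Hoxa10 went from 8.62 to 4.63, and fell by 3.99 (SE 0.31, adjusted p = 2.64e-06). Hoxd10 went from 8.15 to 4.28, and fell by 3.87 (SE 0.21, adjusted p = 2.42e-07). These 3 posterior genes had stood in SSEA1+ cells at 10.22 to 10.71, 8.26 to 8.66 and 7.55 to 8.26 on all days. The other 5 genes called lower were Hoxd8 (-2.48), Hoxa5 (-2.42), Hoxc4 (-1.78), Hoxb3 (-1.23) and Hoxa11 (-1.14). Hoxc8, at 6.05 and 4.91, differed by -1.13 and was not called (adjusted p = 0.138, limma). Without the day 6 Thy1+ M2 array, which enters only through the spread, 10 Hox genes were called. Of the 10 fibroblast markers 2 were lower in the GFP+ cells, with a median of -0.96, and Thy1 stood at 8.17 and 7.01. Of the 9 pluripotency markers 6 were higher, with Pou5f1, which encodes Oct4 and is also in the cassette, at 8.86 and 10.89. The part of either in the Hox step was not tested.

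The iPS cells were then set against the GFP+ cells, which had 1 array. Hoxc13, which acts in hair and nail, was called higher and 0 Hox genes lower (3.99% and 3.24% of all genes). At an unadjusted p under 0.05 (limma), 10 Hox genes were lower and 3 higher. All genes were not counted at this threshold, so no Hox trend is read from it. Of the 33 differences 25 were below 0, and their median was -0.38, against -0.07 over all genes. The count of 1 became 3 without the iPS 1-3 array and 2 without the day 6 Thy1+ M2 array. Hoxc13 followed its own course. It stood at 5.33 and 5.99 in MEFs, between 3.47 and 4.93 on all 18 arrays of sorted fractions, at 3.73 in GFP+ cells and at 5.67, 5.44 and 6.21 in iPS cells. It was higher in iPS than in GFP+ cells by 2.04 (SE 0.35, adjusted p = 0.00116, limma), and no iPS array overlapped with a sorted one. Its mean signal was among the dim ones, and it left the count when the dimmest 25% of genes were removed. Hoxa7 (5.16, 6.68 and 6.22 in iPS cells) kept 6.79 in GFP+ cells, close to 7.15 and 6.99 in MEFs. Hoxa11 stood at 3.90 in GFP+ cells, under the iPS arrays at 4.65, 4.56 and 4.38.

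The EpCAM arrays were of another design. Among day 6 SSEA1+ cells, 1 of 31 Hox genes was lower in EpCAM+ cells and 0 higher (0.266% and 0.484% of all genes). It was Hoxc8, at 8.48 and 8.72 without EpCAM and at 7.64 and 7.49 with it, a difference of -1.03 (SE 0.12, adjusted p = 0.0155, limma). The arrays did not overlap, and the call was lost without any 1 of the 4 arrays (values from -0.91 to -1.15). The other HoxC genes were not called. Hoxc4 differed by -0.51, Hoxc5 by -0.37, Hoxc6 by -0.30, Hoxc9 by -0.29 and Hoxc13 by -0.21, so all 6 were below 0, as were 20 of all 31 Hox genes (median -0.16) and 6 of 9 HoxB genes. HoxD genes lay on both sides and were not called, with Hoxd9 and Hoxd11 at 0.28 and Hoxd10 at 0.16, and with Hoxd13 at -0.33, Hoxd1 at -0.17 and Hoxd8 at -0.16. Across the 30 Hox genes of both tables, the EpCAM difference and the SSEA1+ minus Thy1+ difference gave r = 0.70 and rho = 0.53, as a description across genes measured on different arrays. EpCAM+ cells had 5 of 10 pluripotency markers higher and 2 of 12 fibroblast markers lower, and their part in the Hoxc8 difference was not tested.

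**Figure D5:**
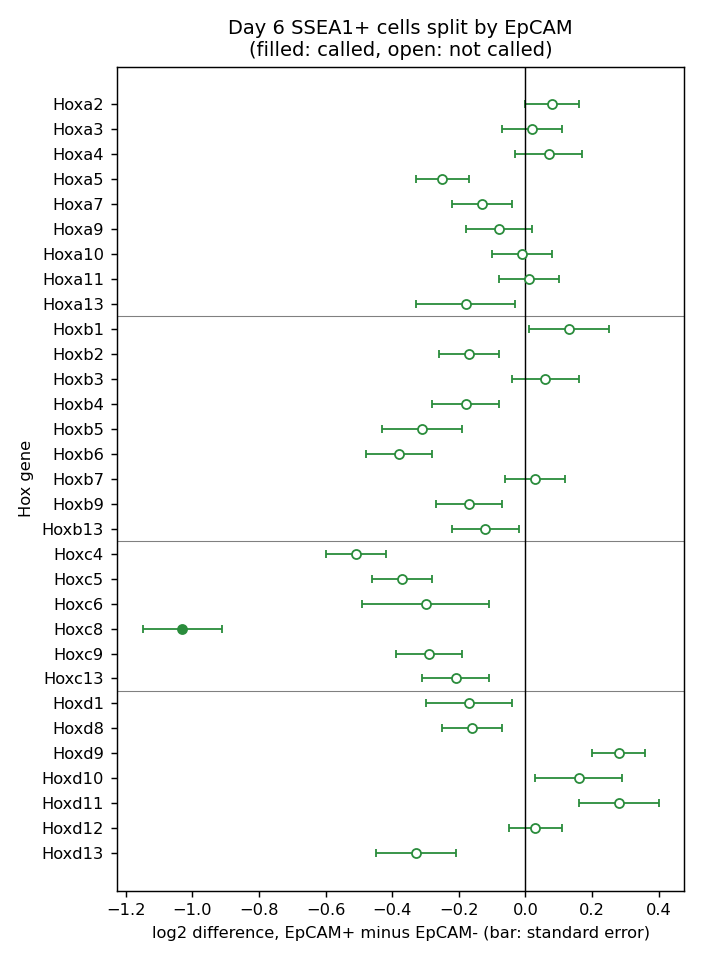
Log2 difference of 31 Hox genes between EpCAM+ and EpCAM- cells among day 6 SSEA1+ cells, with the standard error as a bar (2 arrays per group). Hoxc8 at -1.03 is the only filled (called) point, and all 6 HoxC genes lie below 0.

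Partners and regulators of the Hox genes were read from lists written from general knowledge. Between iPS cells and MEFs their counts stand beside 15.3% of all genes called lower and 15.4% called higher. Of 8 measured TALE cofactors, the homeodomain proteins that bind DNA together with Hox proteins, 3 were lower in iPS cells than in MEFs and 0 higher. Meis2 fell by 3.98 (SE 0.17, adjusted p = 1.5e-10, limma) and Meis1 by 2.45. Meis1 was already lower in GFP+ than in SSEA1+ cells (-1.62), while Meis2 was lower in iPS than in GFP+ cells (-3.0). Of 21 measured Polycomb genes, whose products silence Hox clusters, 9 were higher in iPS cells and 4 lower, with Phc1 higher by 3.39, Rbbp4 by 3.09, Bmi1 lower at -2.33 and Phc2 at -1.91. Of 7 Trithorax and H3K27 demethylase genes, which oppose Polycomb, 5 were higher and 0 lower, led by Dpy30 (2.44) and Wdr5 (2.28). In SSEA1+ against Thy1+ cells over all days, 2 of the 21 Polycomb genes and 1 of the 7 Trithorax and demethylase genes were higher. In both lists 0 were lower, where 3.5% of all genes were higher and 5.07% lower. Ezh2, the H3K27 methyltransferase, was higher by 1.61, Phc1 by 1.40 and Wdr5 by 1.25.

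Most upstream and other positional genes on the lists were not called. Of 15 upstream patterning genes 3 were lower in iPS cells and 0 higher, led by Crabp1 (-3.27) and Rxra (-2.48), a binding protein and a receptor of retinoid signalling. Of 25 other positional factors of limb and trunk 7 were lower and 2 higher, led by Meox2 (-6.12) and Tbx15 (-4.18), against Sall1 (3.42) and Tbx3 (2.00). In GFP+ against SSEA1+ cells Meox2 (-3.29) and Tbx15 (-2.55) were lower and Tbx3 (2.84) was higher. Meox2 was also lower in late than in day 6 SSEA1+ cells (-1.01) and in iPS than in GFP+ cells (-1.26). Meox1, a somite gene, differed from MEFs by -3.78, -3.74 and -4.09 in Thy1+, Thy1- and SSEA1+ cells of day 3. Of 16 measured genes that lie next to the Hox clusters, 2 were higher in iPS cells than in MEFs, Calcoco2 (1.86) and Snx10 (1.19), and 0 lower, where 15.4% of all genes were higher and 15.3% lower. Their median was 0.30, against 0.01 over all genes.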

How the data were processed

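Signals were deposited on the log2 scale, 1 per probe set and array, and RMA is named in the submitters' processing notes as the authors' method. Its version is not given in the sources used here, and probe-level data and detection calls were not used here. Array medians lay between 6.835 and 6.988 (24 arrays) and between 6.553 and 6.58 (4 arrays). Nothing was rescaled in the main fits, and levels were never compared between tables. Of 22716 and 22690 probe sets, 18003 and 20393 carried 1 gene symbol in the array annotation, and a gene was read from its brightest such probe set (mean over arrays). Promoter sequences are RefSeq's.

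Groups came from the labels. Linear models (limma 3.58.1, R 4.3.3) covered all genes, with 15 group means (24 arrays, 9 residual degrees of freedom), with day and fraction (18 sorted arrays, 12) or with 2 groups (EpCAM, 2). Lone arrays borrowed the spread of replicated groups. Same-named arrays did not deviate together (r above 0.1 in 5 of 21 group pairs), so names were not used as pairs. All called Hox genes were named, with full statistics for at most 10 per comparison, those of largest difference, and from each gene list the leading called members. Members and lists were chosen with earlier results of these data known. Alternatives changed scaling, filter, minimum fold, probe-set rule, variance prior, replicate block or the arrays used. The fits were tested on simulated data. Other software was matplotlib 3.10.9, numpy 2.4.6, pandas 2.3.3 and Python 3.11.15.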

Additional observations from a re-analysis of the deposited data

Results flagged for a closer look

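For 4 Hox genes the difference between SSEA1+ and Thy1+ cells was not the same early and late, by the limma interaction term from day 3 to days 9 and 12. It changed by -2.47 for Hoxc8 (adjusted p = 0.00176), by -1.37 for Hoxb5 (adjusted p = 0.00248), by -1.18 for Hoxc4 (adjusted p = 0.0117) and by -1.05 for Hoxd8 (adjusted p = 0.0066). In the same term 6 of 10 fibroblast markers changed downward (median -1.53) and 5 of 9 pluripotency markers upward (median 1.38), and their part was not tested. Days 9 and 12 have 1 array per fraction, all from M2. The call of Hoxc4 was lost without the day 3 Thy1+ M2 array (-1.10), and that of Hoxd8 without the M3 array of day 3 Thy1+ (-0.98) or SSEA1+ cells (-1.0).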

How the results depend on the processing

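Hox genes called were counted again under each alternative in 13 comparisons. The shares of all genes called under the alternatives are not given here. The counts therefore show how they move with the setting and are not read as Hox results, above all with no minimum fold. With no minimum fold, the counts were 15, 14 and 15 on day 3 (Thy1+, Thy1- and SSEA1+ against MEFs), 2 in SSEA1+ cells after day 6, 8 in late Thy1+ cells, 8 between iPS and GFP+ cells, 13 between SSEA1+ and Thy1+ cells, 1 between Thy1- and Thy1+ cells and 2 for EpCAM. The iPS against GFP+ count of 1 became 0 without the dimmest 25% of genes and 2 without the day 6 Thy1+ M2 array, and ran from 1 to 3 when 1 iPS array was left out, 3 without 1-3. M3 arrays alone gave 1 call between SSEA1+ and Thy1+ cells, and leaving out any 1 array left 0 for EpCAM (0 to 0). The iPS against MEF count stayed between 17 and 25. With the replicate block it was 21 and the day 3 SSEA1+ count 8, Hoxd9 being lost (adjusted p = 0.0519), and every other count of these 13 was as before. Of 844 repeats for called genes, 806 kept direction and call, 38 lost the call and 0 reversed. Other than single arrays, day 3 calls were lost with quantile normalization (Hoxa11, -0.96 and -0.93 in Thy1+ and SSEA1+ cells), with array medians subtracted (Hoxb2 in Thy1- cells, -1.0) and with the mean of probe sets (Hoxb4, -0.76). The causes were not tested. Fits with only the compared groups could not be had between lone arrays, nor could leaving 1 out. The number of arrays limits the precision, and dim genes may hide differences.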
